A study of Rattus norvegicus with 11 samples.

Results

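miR-664 in rat pancreatic islets was represented by 4 rows of the deposited miRNA table, out of 950 rows in all. They are the 3p and 5p arms of a pair of gene copies, miR-664-1 and miR-664-2, and were found as every sense-strand row whose name begins with miR-664. No antisense row carried the name. The family was picked because its levels differed between the ages compared here, so its age differences are given below as a description, without a test. Small RNA was sequenced from islets, the endocrine cell clusters of the pancreas, of Sprague-Dawley rats labelled as controls. There were 6 libraries from males aged 3 months (adult, replicates 1 to 6) and 5 from pups aged 10 days (P10, replicates 1, 3, 4, 5 and 6). The labels call them biological replicates and do not say whether a library pools animals. Whether the pups were male or female was not used, so age cannot be told apart from sex.

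MicroRNAs are short RNAs cut from the 2 arms of a hairpin (5p and 3p), and bases 2 to 8 of the arm, the seed, pair with target mRNAs. miR-664 is one of the miRNAs whose precursor overlaps an H/ACA small nucleolar RNA, a class that guides pseudouridylation of ribosomal and spliceosomal RNA. In humans miR-664a lies at such a snoRNA gene inside an intron of RAB3GAP2. The rat RefSeq annotation (GRCr8) gives the snoRNA symbol and the Rab3gap2 location to different loci. It names the miR-664-1 gene Snora36c, an H/ACA snoRNA symbol, and places it inside no other gene, between the protein-coding genes Srfbp1 and Lox. It places miR-664-2 within Rab3gap2, which encodes a subunit of the GTPase-activating complex of Rab3, a regulator of secretory vesicle release. The gene table used gives spans only, so exon or intron was not assigned.

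On Rnor_5.0, the build of the files, the miR-664-1 arms lie on chromosome 18, plus strand, at 46701241 to 46701261 (5p) and 46701278 to 46701299 (3p). The miR-664-2 arms lie on chromosome 13, plus strand, at 107866605 to 107866625 (5p) and 107866642 to 107866663 (3p). All 4 rows matched a RefSeq mature sequence. The mature sequences are shown because they decide which rows can be told apart by their reads, with the seed in capitals.
miR-664-3p (both loci): uAUUCAUUuacuccccagccua
miR-664-2-5p: cUGGCUGGggaaaaugauugg
miR-664-1-5p: cUGGCUGGggaaaaagauugg
The 3p arm has the same 22 bases at both loci. The 5p arms share a seed and differ at 1 of 21 bases, A15U from locus 1 to locus 2, counted from the 5′ end. The hairpins of the 2 loci, shown to place that base in capitals, are 59 bases long and 98.3% identical, with no other difference.
Mir664-1 hairpin (Snora36c): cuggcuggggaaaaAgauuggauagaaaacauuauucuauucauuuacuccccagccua
Mir664-2 hairpin: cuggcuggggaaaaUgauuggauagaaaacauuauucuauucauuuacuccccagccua
Neither seed, AUUCAUU for 3p or UGGCUGG for 5p, occurred in any other of the 724 mature entries of the RefSeq table. Reads of the 3p arm that hold only the mature bases fit both loci. How the authors shared such reads between the rows is not given in the sources used here, so the split of 3p reads between loci is uncertain.

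Libraries held between 1432929 and 2847837 miRNA counts in adults and between 1599157 and 4483017 at P10. Levels are CPM, counts scaled to library size, after TMM, edgeR's correction for library composition, and 1 count was worth less than 1 CPM in every library. Of 898 distinct names, 457 passed a filter on low counts and were tested. 3 of the 4 miR-664 rows passed it. miR-664-1-5p did not, having 1 read in all 11 libraries together. The islet identity of the libraries was checked on miR-375, miR-7a and miR-7b, miRNAs of islet endocrine cells, which together held 252751 to 326109 CPM in adults and 113604 to 166588 CPM at P10. In these bulk samples fewer cells of a type and less RNA per cell cannot be told apart.

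miR-664-2-3p was the most abundant row. Its level was 150.7, 167.3, 63.2, 119.5, 141.7 and 197.6 CPM in adult replicates 1 to 6, against 37.3, 30.9, 24.0, 36.8 and 24.9 CPM in P10 replicates 1, 3, 4, 5 and 6. Every adult library lay above every P10 library, and adult replicate 3 was the lowest of its age. The means were 139.99 ± 45.8 CPM in the 6 adult libraries and 30.8 ± 6.30 CPM in the 5 P10 libraries (± SD), giving a log2 fold change of 2.19 ± 0.26 (SE, edgeR). Among the 457 features tested this was the change of rank 3 from the top, and by mean CPM over all libraries the row had rank 184.

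miR-664-1-3p, the same mature sequence counted at the snoRNA-named locus, had 57.6, 82.5, 34.4, 76.7, 85.9 and 103.6 CPM in the 6 adult libraries, against 28.1, 18.8, 16.1, 23.1 and 20.6 CPM in the 5 P10 libraries. The ages did not overlap, and adult replicate 3 was again the lowest adult library and replicate 6 the highest. The mean was 73.4 ± 24.2 CPM in the 6 adult libraries and 21.3 ± 4.55 CPM in the 5 P10 libraries (± SD), giving a log2 fold change of 1.79 ± 0.26 (SE).

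miR-664-2-5p, whose sequence differs from that of locus 1, had 60.96, 33.2, 63.2, 67.0, 54.2 and 64.8 CPM in the 6 adult libraries, against 17.2, 17.5, 16.1, 27.6 and 21.0 CPM in the 5 P10 libraries. The ages did not overlap here either. The lowest adult library was replicate 2, not replicate 3, and replicate 3 stood within the range of the other adults. The mean was 57.3 ± 12.6 CPM in the 6 adult libraries and 19.9 ± 4.71 CPM in the 5 P10 libraries (± SD), giving a log2 fold change of 1.51 ± 0.22 (SE).

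Over all 457 features, 50.8% differed between the ages by the quasi-likelihood test of edgeR (Benjamini-Hochberg adjusted, threshold 0.05), with 21.2% higher in adults and 29.5% lower. Of these calls 41.8% were higher in adults with TMM, against 55.2% after upper-quartile scaling and 22.4% by library totals alone. No test result is given for the miR-664 rows, since this contrast led to their choice. The CPM ranges of the ages did not overlap for the 3 tested miR-664 rows, as for 30% of all features, and 13.6% of all features had such ranges with adults higher. Nothing is read from that count. The members ranked 3, 10 and 14 by log2 fold change, from the largest rise downwards, among features whose median was -0.11.

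**Figure D1:**
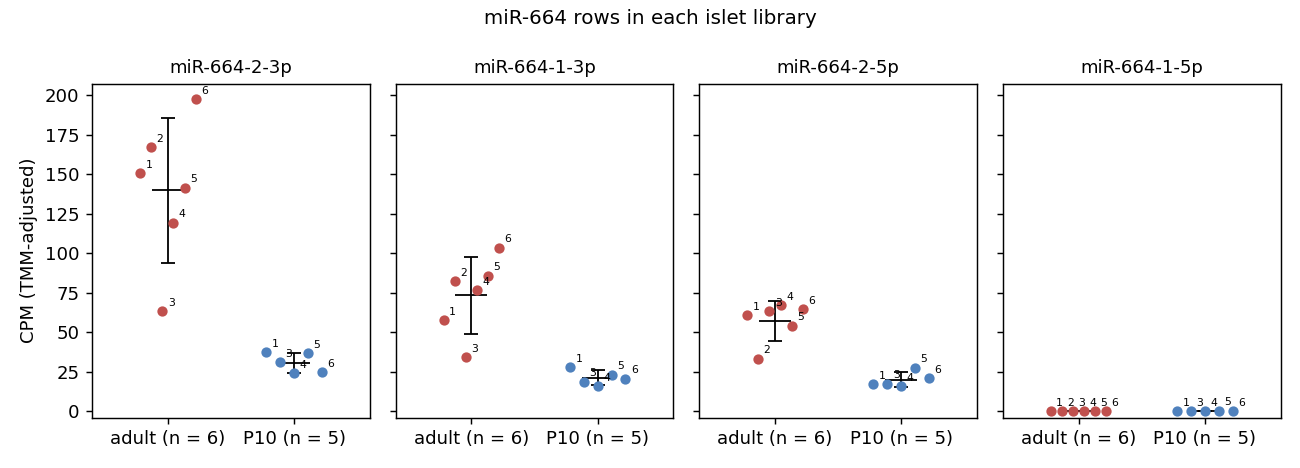
Levels of the 4 miR-664 rows in CPM on a linear axis, adult libraries left and P10 libraries right in each panel. Points are libraries marked with their replicate number and bars are mean ± SD (n = 6 adult, n = 5 P10). Adult points lie above all P10 points for 3 rows, and miR-664-1-5p lies at or near 0.

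**Figure D2:**
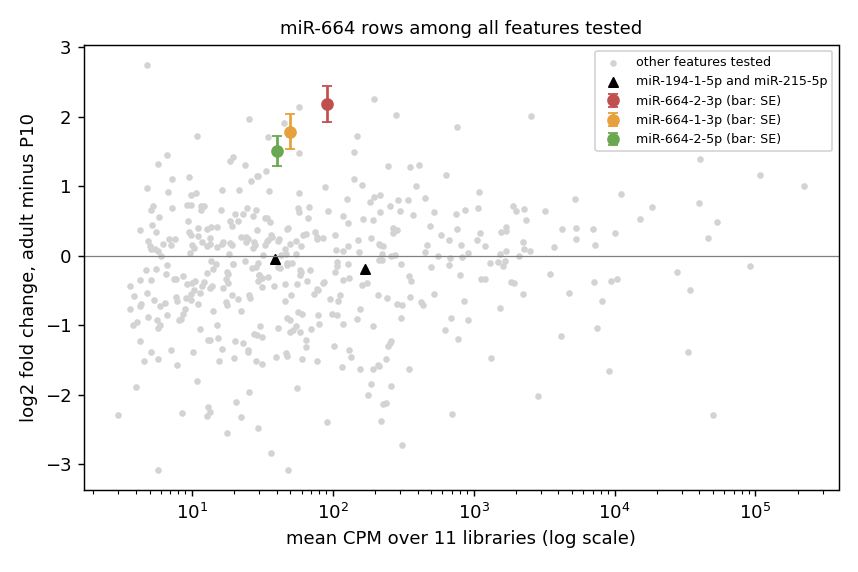
Log2 fold change (adult minus P10) against mean CPM over 11 libraries (log axis) for the 457 features tested. The miR-664 rows, with SE bars, lie between 1.51 and 2.19, and the genomic neighbours miR-194-1-5p and miR-215-5p lie near 0.

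The order of levels was the same in both ages, miR-664-2-3p above miR-664-1-3p, miR-664-2-5p and miR-664-1-5p. The order is one of mean levels, and no step between neighbours in it is backed by a test below. Comparisons of rows were made within libraries and do not use the age contrast. 5 pairs of rows were compared by two-sided exact permutation of signs over the 2048 sign flips of 11 libraries, on log2 ratios of counts with 0.5 added to both. Arms differ in ligation and PCR efficiency, so a ratio between arms is one of reads.

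More reads were counted in the 3p row of miR-664-2 than in its 5p row. The 3p count depends on how reads of the shared 3p sequence were split between the loci. The 5p sequences of the loci differ at 1 base, and how strictly reads were matched to them is not given. The ratio of 3p to 5p counts was 2.47, 5.03, 1, 1.78, 2.61 and 3.05 in adult replicates 1 to 6, against 2.17, 1.77, 1.49, 1.33 and 1.19 in the 5 P10 libraries. The 3p arm was ahead in 10 of 11 libraries, and in adult replicate 3 each arm had 92 reads. The mean log2 ratio over all libraries was 0.96 ± 0.67 (SD, n = 11), above 0 (exact permutation p = 0.00195, adjusted p = 0.00244 over 5 pairs). miR-664-1-3p and miR-664-2-5p, neighbours in the order of levels, differed by a mean log2 ratio of 0.22 ± 0.59 (SD, n = 11), which did not pass (exact permutation p = 0.266, adjusted p = 0.266). miR-664-2-3p and miR-664-1-3p were not compared by a test, since they share a sequence.

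The 5p row of miR-664-1 was nearly empty. It had 0 of 622 5p reads in the adult libraries together, which allows a share of up to 0.482% by a floor of 3 counts and of up to 0.591% by the 95% exact interval, and 1 of 338 at P10. Over all libraries 1 of 960 5p reads was counted at locus 1, a share of 0.104% (95% exact interval 0.00264% to 0.579%). The row was at 0 in 10 of 11 libraries, so the sign of its comparison with each of the other rows was fixed, and no p is given for those 3 pairs. They still count among the pairs over which p was adjusted, so the adjusted p above rests partly on them.

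The 3p reads were shared differently. In adult replicates 1 to 6, 27.6%, 33.0%, 35.2%, 39.1%, 37.8% and 34.4% of 3p reads stood in the miR-664-1 row, against 42.9%, 37.8%, 40.1%, 38.6% and 45.2% in the 5 P10 libraries. The mean was 34.5% ± 4.03 over 6 adult libraries and 40.9% ± 3.08 over 5 P10 libraries (± SD), and the ages overlapped. The adult mean was thus 6.41 percentage points lower, which corresponds to the smaller fold change of miR-664-1-3p. Every share was below 50%, and the 95% Wilson interval reached 50% only in P10 replicate 6 (38.8% to 51.8%). These shares describe the rows as counted, since the rule behind the split is unknown. Intervals cover counting error only, as no molecular identifiers are stated.

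**Figure D3:**
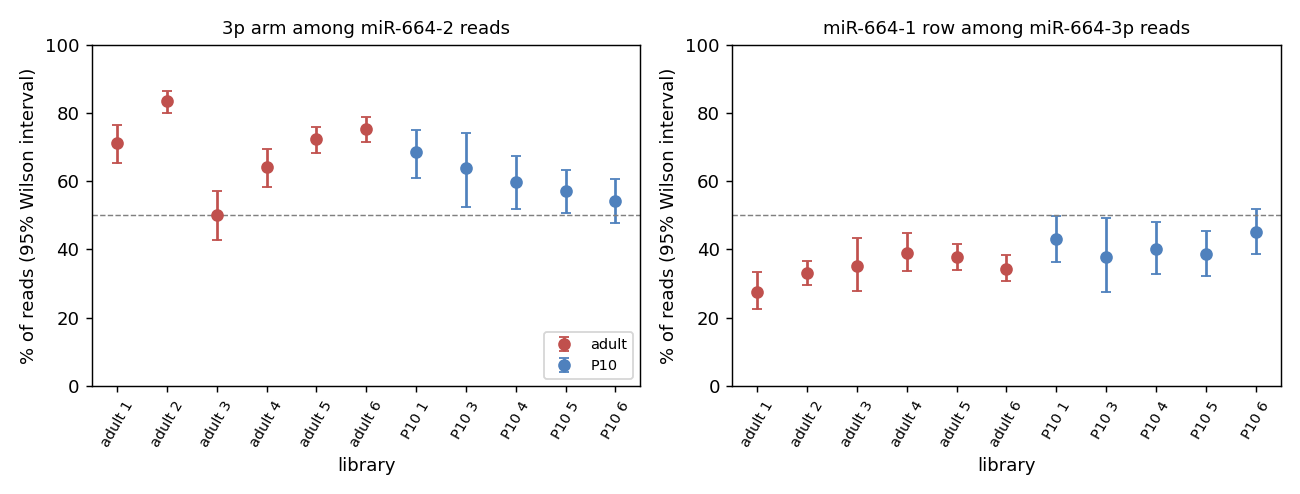
Share of 3p among miR-664-2 reads (left) and share of the miR-664-1 row among 3p reads (right), in percent, per library, adults left of P10. Bars are 95% Wilson intervals and the dashed line marks 50%. The 3p share runs from 50% in adult replicate 3 to 83.4% in adult replicate 2, and the locus 1 share stays between 27.6% and 45.2%.

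The 3p share of miR-664-2 reads was 50% in adult replicate 3 (95% Wilson interval 42.8% to 57.2%) and 83.4% in adult replicate 2 (80.0% to 86.4%), the lowest and highest of the adults. The mean share was 69.4% ± 11.4 over 6 adult libraries and 60.7% ± 5.60 over 5 P10 libraries (± SD). The log2 ratio of 3p to 5p counts averaged 1.24 ± 0.78 in the 6 adult libraries and 0.63 ± 0.34 in the 5 P10 libraries (± SD), giving a difference of 0.61 that is smaller than the adult SD, and the ages overlapped. On log2 CPM the adult SD of the ratio was 0.77 for miR-664-2, against a median of 0.38 over the 145 precursors with both arms tested, where it ranked 12. Its age difference ranked 23 of the 145.

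Adult replicate 3 was low for the 3p sequence and not for the 5p sequence. Relative to their own adult means on the log2 CPM scale, miR-664-2-3p stood at -1.05, miR-664-1-3p at -0.998 and miR-664-2-5p at 0.18 in that library. Of 457 features only 14 lay lower there than miR-664-2-3p, and miR-664-1-3p was the next above it. Over the 145 precursors the median deviation of the 3p to 5p ratio in this library was -0.04, with 78 of 145 below 0.

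A run of cytosines is shared by the 3p sequence and some other miRNAs low in the same library. It was looked for after the values had been seen. miR-664-3p holds 8 cytosines in 22 bases, 4 of them in a row, and miR-664-2-5p holds 2. Mature sequences are shown with runs of 3 or more C in capitals, chosen after their values were seen, to set miR-664-3p beside 3 other miRNAs that were low in adult replicate 3.
miR-664-3p: uauucauuuacuCCCCagccua
miR-129-1-3p: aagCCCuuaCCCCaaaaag
miR-129-2-3p: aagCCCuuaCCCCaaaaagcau
miR-296-5p: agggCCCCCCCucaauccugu
Of the 332 named sense features tested, 287 (86.4%) matched a RefSeq mature sequence, and 15 of these besides miR-664 hold a run of at least 4 C. In adult replicate 3 their median deviation from their own adult means was -0.68, with 11 of 15 below 0, whereas 269 others without such a run had a median of 0.07, with 101 below 0. The 15 include the 3 shown above and were grouped after the values had been seen, so their low median is no independent result. The 14 features that lay below miR-664-2-3p in that library were not all among the 15. The miR-129 copies share all but the last bases, so reads could be split between them. miR-129-2-3p stood at -1.51, miR-296-5p at -1.50 and miR-129-1-3p at -1.31, and miR-345-5p, which also has the run, at 0.37. In adult replicate 6, the highest library for both 3p rows, the 15 had a median of 0.51. In P10 replicate 1, where miR-664-1-3p was highest of its age, they had a median of 0.50. The likeness was not complete for miR-664-2-3p: in P10 replicate 3 the 15 had a median of -0.39 and miR-664-2-3p stood at 0.03. The signs also differed in adult replicate 1 (-0.17 for the 15, 0.19 for miR-664-2-3p) and adult replicate 4 (0.05 and -0.15). miR-664-1-3p had the sign of the 15 in these libraries, at -0.15 in P10 replicate 3, -0.27 in adult replicate 1 and 0.14 in adult replicate 4. Between the ages the 15 had a median log2 fold change of 0.02, with 2 higher and 1 lower in adults, beside 60 higher and 81 lower of the 269 others (median -0.01) and 21.2% higher and 29.5% lower over all features. The part of base composition in the miR-664 levels was not tested.

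**Figure D4:**
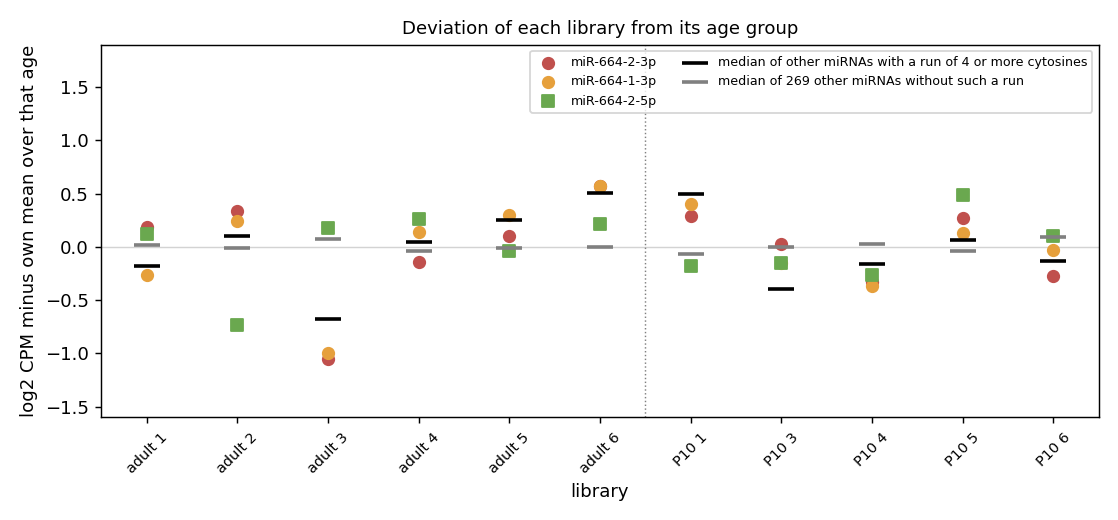
Log2 CPM of each library minus the mean of its own age, for the 3 tested miR-664 rows (points), 15 other miRNAs with a run of at least 4 cytosines (black bars, median) and 269 without (grey bars, median), adults left of P10. Both 3p rows and the black bar lie lowest in adult replicate 3, at -1.05, -0.998 and -0.68, while miR-664-2-5p lies at 0.18.

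Without adult replicate 3 the age differences were larger, with log2 fold changes of 2.35 for miR-664-2-3p and 1.94 for miR-664-1-3p. Over all leave-one-out fits, the log2 fold change lay between 2.07 and 2.35 for miR-664-2-3p, 1.67 and 1.94 for miR-664-1-3p, and 1.44 and 1.68 for miR-664-2-5p.

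The miRNAs next to miR-664-2 on the genome were set beside it. On Rnor_5.0 only miR-194-1-5p and miR-215-5p, an epithelial pair, lay within 250 kb, 57.8 and 58.0 kb away on the same strand. No feature of the table lay that near miR-664-1. miR-194-1-5p averaged 158.9 ± 15.6 CPM in the 6 adult libraries and 181.4 ± 31.4 CPM in the 5 P10 libraries (± SD), giving a log2 fold change of -0.19 ± 0.14 (SE), which did not pass (edgeR adjusted p = 0.271). With library totals alone it passed as lower in adults (log2 fold change -0.46, edgeR adjusted p = 0.0199). The mature arm of miR-194-1-5p has the same sequence as that of miR-194-2-5p at another locus, so its reads could be split between them too. miR-194-2-5p, named after its values were seen, averaged 65.2 CPM in adults and 91.2 CPM at P10, a log2 fold change of -0.48 ± 0.14 (SE), lower in adults (edgeR adjusted p = 0.0123). miR-215-5p averaged 38.4 ± 7.42 CPM in the 6 adult libraries and 39.3 ± 9.04 CPM in the 5 P10 libraries (± SD), giving a log2 fold change of -0.04 ± 0.19 (SE) at an edgeR adjusted p of 0.859. The difference between these changes and that of miR-664-2 was not tested, since the family was chosen on its change.

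A list of miRNAs made outside the usual Drosha route was set beside miR-664, whose own processing was not examined. The list held snoRNA-linked miRNAs, mirtrons (hairpins freed by splicing) and miRNAs with capped precursors. Of its 11 names, 6 had rows here, with 9 features tested. 4 of the 9 were higher in adults and 0 were lower, beside 21.2% higher and 29.5% lower over all features, and the median log2 fold change was 0.37. The 4 are both arms of miR-1839 and of miR-877, so arms of the same hairpin are counted apart. With library totals alone 3 were higher, and miR-320a-3p, from a capped precursor, was lower (log2 fold change -0.41, edgeR adjusted p = 0.0358). The snoRNA-linked miR-1839-3p averaged 34.4 CPM in adults and 16.3 CPM at P10, a log2 fold change of 1.07 ± 0.19 (SE) at an edgeR adjusted p of 0.000337. miR-1839-5p averaged 359.1 CPM in adults and 229.5 CPM at P10 (log2 fold change 0.64 ± 0.14, edgeR adjusted p = 0.00143), a call that ended with library totals alone (0.37, adjusted p = 0.0672). Both arms of miR-877, a mirtron, were higher, miR-877-5p with a log2 fold change of 1.31 ± 0.31 (SE) at an edgeR adjusted p of 0.00338 and miR-877-3p with 1.32 ± 0.32 (adjusted p = 0.00389). The other mirtrons, miR-1224 and miR-702, did not pass, with log2 fold changes of 0.03 for miR-1224-5p, 0.37 for miR-1224-3p and 0.20 for miR-702-3p, and neither did miR-484-3p at 0.02. miR-877-3p and miR-1224-3p also had their lowest adult level in replicate 3, at 2.75 CPM for miR-877-3p and 8.25 CPM for miR-1224-3p. In that library 1 count was worth 0.687 CPM and 3 counts 2.06 CPM, so both levels rest on few reads. Without that library their log2 fold changes were 1.50 for miR-877-3p and 0.58 for miR-1224-3p.

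The features with the profile nearest to that of miR-664-2-3p were found by the mean absolute difference in log2 CPM over 11 libraries, each profile centred on its own mean, so the age difference enters the measure. The nearest was miR-664-1-3p (0.22), followed by miR-129-1-3p (0.25), an unnamed feature with an Ensembl transcript identifier, ENSRNOT00000069039_-3p (0.35), miR-212-3p (0.36) and miR-383-5p (0.39). miR-129-1-3p, a miRNA abundant in brain, had 164.3, 300.9, 79.7, 210.7, 236.5 and 307.8 CPM in the 6 adult libraries, against 97.8, 54.5, 48.8, 64.4 and 62.4 CPM in the 5 P10 libraries. Its lowest adult library was replicate 3, which lay below P10 replicate 1, and its highest was replicate 6. The other copy, miR-129-2-3p, did not share the rise. It averaged 123.2 CPM in adults and 133.5 CPM at P10, a log2 fold change of -0.11 (edgeR adjusted p = 0.757). Reads could be split between these copies, so the rise belongs to the miR-129-1-3p row as counted. miR-212-3p, an activity-regulated miRNA, had 299.0 CPM in adult replicate 3 and 234.8 to 346.6 CPM over all adults, against 54.5 to 73.9 CPM at P10, so it lacked the low value of that library. miR-664-2-5p was not among the nearest 5.

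**Figure D5:**
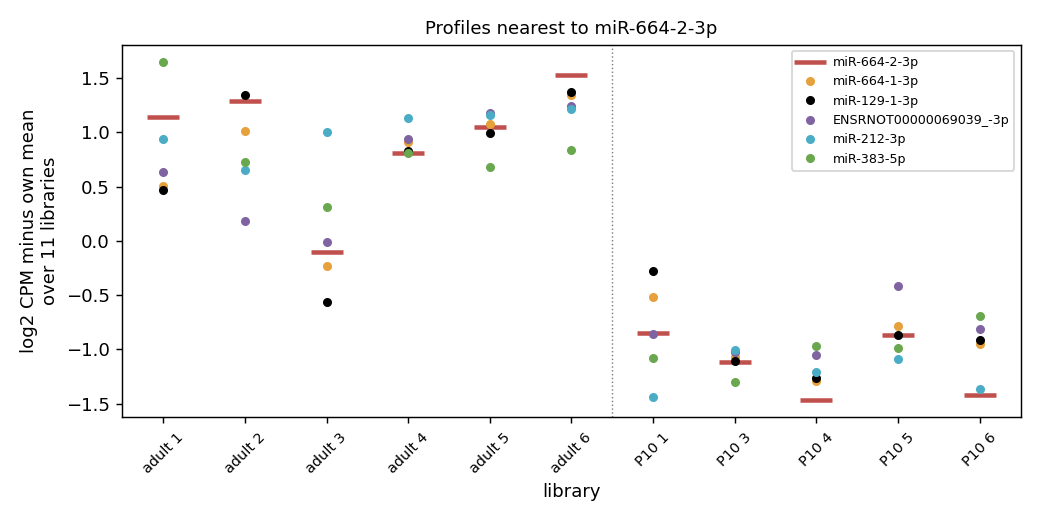
Log2 CPM minus each feature's own mean over 11 libraries, for miR-664-2-3p (bars) and its 5 nearest features (points), adults left of P10. miR-664-1-3p and miR-129-1-3p share the low value of miR-664-2-3p in adult replicate 3, and miR-212-3p does not.

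Markers of islet endocrine cells and of other cell types are given beside the 21.2% of all features higher and 29.5% lower in adults. Of 7 tested islet endocrine features 5 were higher and 0 lower in adults (median log2 fold change 1.01). Of 6 tested mesenchymal features 0 were higher and 4 lower in adults (median log2 fold change -1.11), with summed levels of 17177 to 58305 CPM in adults and 33256 to 61145 CPM at P10. Of 3 tested acinar features 2 were higher and 0 lower (median 1.36), with sums of 28.6 to 127.1 CPM in adults and 22.2 to 37.7 CPM at P10. The leukocyte sum ranged from 212.1 to 787.2 CPM in adults, highest in replicate 3, and from 617.6 to 1357 CPM at P10, with 0 of 3 features higher and 1 lower. The erythroid sum ranged from 14.5 to 63.8 CPM in adults and from 24.2 to 72.3 CPM at P10, with 0 of 2 features higher or lower. The neuronal marker miR-124 stood between 0 and 1.37 CPM in adults and between 1.32 and 2.29 CPM at P10. The parts of these cell types in the miR-664 levels were not tested.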

How the data were processed

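The authors deposited raw counts for each miRNA arm at each locus. Coordinates are on Rnor_5.0 (file headers; rn5 in the submitters' processing notes, which also name edgeR and DESeq without a role). Per the labels' protocols, small RNA libraries were ligated and amplified from total islet RNA. No source used here names the aligner or counting rules. The whole-series table was compared with the per-library tables and equalled all 11.

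Rows of the same name entered once, with the highest count in each library. In R 4.3.3, edgeR 4.0.16 filtered features (filterByExpr), applied TMM scaling and fitted age by robust quasi-likelihood (adult minus P10), with Benjamini-Hochberg adjustment over 457 features. SE were derived from the quasi-likelihood statistic, and log2 CPM used a prior count of 2. Ratios within libraries were tested by exact sign permutation (scipy 1.17.1). The model step was first checked on simulated data in which as many features rose as fell, so uneven changes were not covered.

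The members, lists and named miRNAs were chosen with earlier results of these data known. Named were all miR-664 rows, table features within 250 kb, the nearest 5 profiles, the 5 features closest in abundance and the non-canonical list. No sense row matched the names of endothelial miR-126, hepatocyte miR-122, mesenchymal miR-214, neuronal miR-9 and 5 non-canonical miRNAs, so these were not analysed here. Libraries of the same age differed by more than sampling noise (smallest ratio of chi-square to its degrees of freedom, 11.7). The edgeR p-values set the age difference against the spread between libraries of the same age. The permutation p-values rest on sign flips of the ratios of these libraries. Whether a library pools animals is not stated. RefSeq tables (GRCr8) gave sequences and gene names only. Mature entries without an arm in their name were given the arm of the hairpin side that holds them. DESeq2 1.42.0 and limma-voom (limma 3.58.1) were alternatives.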

Additional observations from a re-analysis of the deposited data

How the results depend on the processing

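The log2 fold changes of the 3 tested miR-664 rows kept their direction under every alternative run. Outside the leave-one-out fits they ran from 1.92 to 2.36 for miR-664-2-3p, 1.52 to 1.96 for miR-664-1-3p and 1.24 to 1.68 for miR-664-2-5p, lowest with library totals alone. That setting shifted the median over all features by -0.26 (log2), and 54 features were higher and 187 lower in adults (22.4% of calls higher), against 97 and 135 (41.8%) with TMM. Upper-quartile scaling shifted it by 0.16, with 127 higher and 103 lower (55.2%). DESeq2 gave 127 higher and 121 lower (51.2%).

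The replicate numbers did not pair the libraries (correlations of deviations -0.21 to 0.20 over 5 pairs, 1 of 5 adults best matched by its own number). The replicate block also leaves out adult replicate 2, which has no P10 partner. With it the log2 fold changes were 2.08, 1.71 and 1.65 for miR-664-2-3p, miR-664-1-3p and miR-664-2-5p, and 205 features passed, against 208 without the block and without adult replicate 2, and 232 over all libraries.

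Leaving out each library gave 197 to 230 features called. Within one age no pair without miR-664-1-5p passed. In the 6 adult libraries the adjusted exact permutation p was 0.0781 for miR-664-2-3p over miR-664-2-5p and 0.438 for miR-664-1-3p over miR-664-2-5p. The first of these pairs had equal counts in adult replicate 3. Its exact permutation p of 0.0625 was thus the smallest the adult libraries could give, so it could not pass. The 5 P10 libraries cannot give a p below 0.0625, so no pair could pass there. The mean log2 ratios in adults and at P10 were 1.24 and 0.63 for miR-664-2-3p over miR-664-2-5p, 7.98 and 6.72 for miR-664-1-3p over miR-664-1-5p, 7.66 and 6.61 for miR-664-2-5p over miR-664-1-5p, and 8.90 and 7.25 for miR-664-2-3p over miR-664-1-5p. Ratios over miR-664-1-5p depend on the count added, as that row is at 0 in 10 of 11 libraries. Low read numbers per row limit the precision of each share.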

Other observations

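The 5 features closest to miR-664-2-3p in mean CPM differed widely in their age change. miR-181c-3p averaged 31.0 CPM in adults and 162.6 CPM at P10, miR-222-3p 76.4 CPM in adults and 116.9 CPM at P10, and miR-130b-3p 75.9 CPM in adults and 98.7 CPM at P10. miR-340-3p averaged 110.3 CPM in adults and 70.4 CPM at P10, and an antisense feature, miR-3575-5p, 113.1 CPM in adults and 56.6 CPM at P10. Their log2 fold changes ran from -2.40 to 0.99.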
